A study of Homo sapiens with 6 samples.

Results

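The transcriptome of MKN-CEAR cells, a gastric tumour line resistant to a T cell bispecific antibody (TCB) against CEACAM5, was compared with that of the sensitive line it derives from, MKN45. The comparison took the 4 libraries that the labels assign to these lines, 2 of CEAR and 2 of MKN45, out of 6 in the series. Every gene that passed a filter on low counts entered it, which left 14958 of the 29744 gene symbols of the count table. The other 2 libraries come from HER2R, an MKN45 derivative with the source name MKN45-HER2 that is resistant to a HER2 TCB. They shared the fit, and the direct contrast of CEAR with HER2R served to show where the CEAR cells differed from another resistant derivative.

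All 3 lines are human gastric tumour cells grown in the same serum-containing medium, and the labels give no treatment for any library. No T cells and no TCB are named in the growth or treatment notes. The labels do not say whether CEAR is a clone or a pool, how it was selected, or whether libraries 1 and 2 of a line came from separate cultures. The p-values therefore measure the spread between these libraries, which may be technical. With 1 derivative of each kind, what goes with resistance and what goes with the individual line cannot be told apart.

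A TCB carries a binding site for a tumour surface protein and another for CD3 on T cells, so that a T cell is brought to a target cell and activated. CEACAM5, also called carcinoembryonic antigen, is a surface glycoprotein attached to the membrane of gut epithelial and tumour cells by a glycosylphosphatidylinositol (GPI) anchor. Activated T cells kill through perforin and granzymes, through death receptors such as FAS, and through interferon gamma, which signals by IFNGR1, IFNGR2, JAK1 and JAK2 and raises the genes that present peptides on MHC class I.

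A gene was called when the quasi-likelihood test of edgeR gave it a p under 0.05 after Benjamini-Hochberg adjustment over all tested genes. Levels are in CPM, which are counts scaled to the size of the library, and are given as library 1 and then library 2 of a line. Changes are log2 fold changes of CEAR over MKN45 with their standard error. By this rule 385 genes were higher in CEAR (2.57% of those tested) and 541 were lower (3.62%), together 926 genes or 6.19%. Beyond 2-fold were 257 of the higher and 390 of the lower genes, and beyond 8-fold 78 and 129. The lines did not overlap, with every CEAR library above every MKN45 library, for 25% of all tested genes, and with every CEAR library below for 25.6%. All 385 higher and 541 lower called genes were among these, so lack of overlap adds nothing to a call. A second fit added library number as a term, referred to here as the block, since the libraries of equal number deviated together. With the block 1795 genes were higher (12%) and 2066 lower (13.8%), 25.8% in all. All 926 genes were called again there in the same direction, and 2935 were called only there. When each of the 6 libraries was left out in turn, 156 of the 926 genes (73 higher, 83 lower) were called in every refit.

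**Figure D1:**
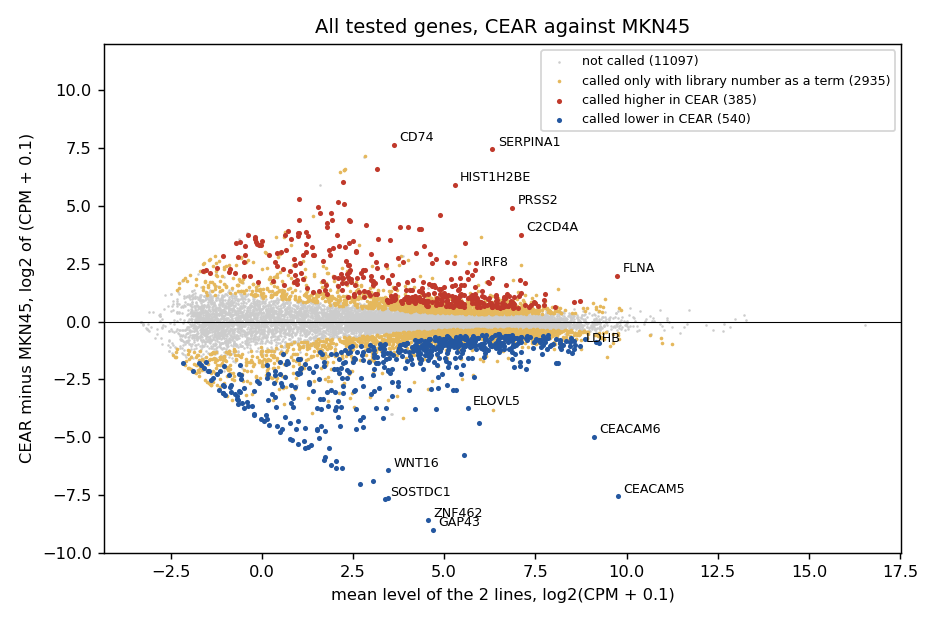
Each point is 1 of 14957 tested genes, by mean level of the CEAR and MKN45 libraries (log2 of CPM + 0.1) and by the CEAR minus MKN45 difference on the same scale; 1 called gene is not shown. CEACAM5 and CEACAM6 lie at the lower right, with high levels in MKN45 and large decreases, and FLNA lies at the upper right.

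Total counts ran from 39657353 to 57964246 per library over the whole series. The 2 libraries of a line differed by more than sampling noise (chi-square per degree of freedom 94.7 for CEAR and 134 for MKN45). All 14 gastric tumour cell markers were tested in these libraries, among them KRT8 at 4228 and 5070.2 CPM in CEAR and 5470.5 and 6500.2 in MKN45. None of 18 T, NK and B cell markers in the table passed the filter, and their summed level was 0.27 and 0.25 CPM in CEAR and 0.23 and 0.48 CPM in MKN45. Of 11 myeloid markers only CD68 and LYZ were tested, LYZ being a lysozyme that gastric glands also make, and of 12 fibroblast and endothelial markers only COL1A1, at no more than 1.69 CPM in CEAR and MKN45. Reads of near-identical or overlapping genes may be split among them by the counting, which concerns the CEACAM, HLA, histone, metallothionein, trypsinogen and zinc finger families below.

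CEACAM5, the antigen of the TCB, was at 2.34 and 15.9 CPM in the CEAR libraries against 1007 and 2441 in the MKN45 libraries. Both CEAR libraries lay far below both MKN45 libraries, and library 2 was the higher in each line. The change was -7.56 ± 1.08 (edgeR adjusted p = 0.0156, n = 2 libraries a line), a 189-fold lower level, and the call held in all 6 refits that left out a library (adjusted p up to 0.0403). HER2R kept 1036 and 2289 CPM, so that CEAR was also lower than HER2R (-7.51, edgeR adjusted p = 0.0125). The CEAR libraries still held 803 CEACAM5 counts together, against 164178 in MKN45, so the transcript was detected in the resistant line.

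CEACAM6, a GPI-anchored relative encoded next to CEACAM5, was at 8.70 and 58.2 CPM in the CEAR libraries against 801 and 1325 in the MKN45 libraries. This fall of -4.99 ± 1.08 was called (edgeR adjusted p = 0.0487), but only the refit without CEAR library 2 kept the call (adjusted p = 0.0442). Without CEAR library 1 the adjusted p was 0.0918, without MKN45 library 1 it was 0.0862, without MKN45 library 2 it was 0.118, and without HER2R library 1 or 2 it was 0.0679 and 0.0675. CEACAM6 was also low in HER2R, at 8.23 and 37.5 CPM, where CEACAM5 was not (0.55 for CEAR minus HER2R, adjusted p = 0.728). CEACAM1, a transmembrane member, was at 20.96 and 25.6 CPM in the CEAR libraries against 35.2 and 43.1 in the MKN45 libraries, which was not called without the block (-0.75 ± 0.25, adjusted p = 0.139) and was called with it (adjusted p = 0.00518). Among 12 family members with counts listed, 5 were tested, and CEACAM7 and CEACAM19 were at 2.68 CPM or less in every library.

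Other surface targets gave other patterns. ERBB2, which encodes HER2, was at 75.6 and 109 CPM in the CEAR libraries against 103 and 126 in the MKN45 libraries, a difference that was not called (-0.31 ± 0.21, edgeR adjusted p = 0.428). EPCAM, an epithelial adhesion molecule, was at 453 and 486 CPM in the CEAR libraries against 526 and 641 in the MKN45 libraries (-0.31 ± 0.17, adjusted p = 0.337). Of 17 tested surface proteins used as tumour antigens, 2 rose and 2 fell (6.19% of all tested genes were called). CLDN18, a tight junction protein of the stomach, rose from 2.09 and 2.59 to 46.9 and 30.8 CPM (4.06 ± 0.29, adjusted p = 0.00241), and MSLN, encoding mesothelin, fell from 31.5 and 55.2 to 11.2 and 12.5 CPM (-1.87 ± 0.27, adjusted p = 0.0163). CLDN18 was called in all 6 refits and MSLN in 4; the other lower gene is not described here. The hypoxia-induced carbonic anhydrase CA9 rose from 0.567 and 0.387 to 2.84 and 12.4 CPM (3.98 ± 0.80, adjusted p = 0.0401), and this call held in 1 of the 6 refits (adjusted p up to 0.149).

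**Figure D2:**
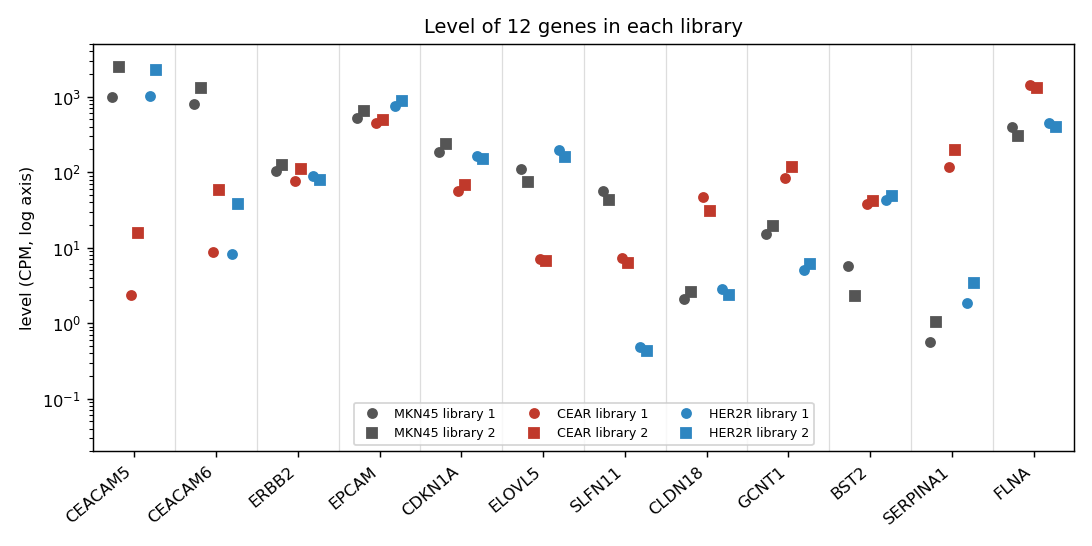
Levels of 12 genes in the 2 libraries of MKN45, CEAR and HER2R, in CPM on a log axis; circles are library 1 and squares library 2. CEACAM5 is low only among the CEAR points, CEACAM6 is low in CEAR and HER2R, and ERBB2 and EPCAM lie close together in all 3 lines.

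Synthesis and attachment of the GPI anchor, which holds CEACAM5 on the membrane, changed little at the RNA level. Of 29 genes of that pathway, all of them tested, 1 was higher and none lower (4 higher and 1 lower with the block), and the median change was -0.0046 on the log2 scale. The called gene was PGAP1, which removes an acyl chain from the finished anchor. It was at 39.97 and 38.9 CPM in the CEAR libraries against 14.6 and 13.7 in the MKN45 libraries (1.48 ± 0.25, edgeR adjusted p = 0.0233).

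The promoter letters of the antigen gene and of 3 further genes that were close to absent from 1 line are shown because they differ in their content of CG dinucleotides, which are printed in capitals. Each run is the 250 bases before the RefSeq start site in GRCh38.p14, read on the gene's own strand. The CEACAM5 stretch is chr19:41708376-41708625 (plus strand) and the CD74 stretch chr5:150412911-150413160 (minus strand), and these genes differed by -7.56 and 10.08 in CEAR. The GNB4 stretch is chr3:179451471-179451720 (minus strand) and the ZNF347 stretch chr19:53159054-53159303 (minus strand), and these genes were at 0.0723 and 0 and at 0 and 0 CPM in CEAR.
CEACAM5: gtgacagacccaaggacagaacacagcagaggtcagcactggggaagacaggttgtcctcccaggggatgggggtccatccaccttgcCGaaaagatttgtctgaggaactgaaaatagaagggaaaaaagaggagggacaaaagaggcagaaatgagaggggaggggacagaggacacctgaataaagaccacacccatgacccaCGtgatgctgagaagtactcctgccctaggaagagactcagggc
CD74: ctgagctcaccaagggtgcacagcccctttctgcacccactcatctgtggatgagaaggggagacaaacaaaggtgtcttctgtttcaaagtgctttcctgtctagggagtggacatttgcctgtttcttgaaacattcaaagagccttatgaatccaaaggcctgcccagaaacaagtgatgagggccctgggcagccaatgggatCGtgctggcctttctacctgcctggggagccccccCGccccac
ZNF347: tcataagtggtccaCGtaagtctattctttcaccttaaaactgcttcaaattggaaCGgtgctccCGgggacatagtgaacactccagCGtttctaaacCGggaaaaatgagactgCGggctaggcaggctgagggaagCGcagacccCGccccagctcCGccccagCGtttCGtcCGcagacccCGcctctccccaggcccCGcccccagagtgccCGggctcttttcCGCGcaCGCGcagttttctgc
GNB4: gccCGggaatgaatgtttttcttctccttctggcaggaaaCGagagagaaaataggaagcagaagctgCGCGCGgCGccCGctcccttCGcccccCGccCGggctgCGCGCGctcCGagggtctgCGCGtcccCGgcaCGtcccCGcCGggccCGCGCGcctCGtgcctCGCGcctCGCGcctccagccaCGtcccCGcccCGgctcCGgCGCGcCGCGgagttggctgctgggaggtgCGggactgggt

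CEACAM5 and CD74 have 2 CG each in this window, ZNF347 has 19 and GNB4 has 37. Among 11146 tested genes with a promoter in the RefSeq table the median was 21 CG (quartiles 13 and 28), and 6.56% had 3 or fewer, against 30.0% of all 27195 promoters. Called higher genes had a median of 22 and called lower genes of 19. Beyond 8-fold the medians were 12 for 59 higher and 14 for 97 lower genes. The count of CG is a description of these letters, and no DNA methylation or chromatin measurement was analysed here.

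The largest increases were in genes that MKN45 hardly expressed. CD74, which chaperones MHC class II chains, had 2 counts in the MKN45 libraries together and 2136 in CEAR, a ratio of 1247 with a 95% counting interval from 345 to 10304, which covers counting error only. SERPINA1, which encodes the protease inhibitor alpha-1-antitrypsin, was at 118 and 199 CPM in the CEAR libraries against 0.567 and 1.05 in the MKN45 libraries (7.65 ± 0.48, edgeR adjusted p = 0.00241). It also stood above HER2R, at 1.83 and 3.39 CPM (5.92, adjusted p = 0.00229). FGL2, a fibrinogen-like secreted and membrane protein, rose by 7.74 ± 0.61 to 11.8 and 23.7 CPM, and SHISA2 by 7.73 ± 0.65 to 9.28 and 8.83 CPM.

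PRSS2, a trypsinogen, reached 251 and 198 CPM in CEAR from 2.89 and 11.8 in MKN45 (4.95 ± 0.75, edgeR adjusted p = 0.018). The histone gene HIST1H2BE rose from 1.58 and 0.773 to 82.9 and 70.9 CPM, and MT1E, a metal-binding metallothionein, from 0.124 and 0.0455 to 4.96 and 6.20 CPM. C2CD4A and C2CD4B, neighbouring genes on chromosome 15, rose together: C2CD4A from 26.4 and 11.7 to 294 and 218 CPM and C2CD4B from 2.85 and 1.66 to 62.3 and 51.7 CPM. The remaining genes among the 15 largest increases were CYP4X1, DTX3, ZNF883, MYEF2, LHX1, SLC28A2 and STK31, at 5.37 to 13.6 CPM in the CEAR libraries and at no more than 0.728 CPM in MKN45. Of these 15 genes SLC28A2, a nucleoside transporter, lost its call in 2 of 6 refits (adjusted p up to 0.0633), and the others kept theirs in every refit.

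Of the called higher genes FLNA, the actin cross-linking filamin A, had the highest CPM, a scale that also grows with transcript length. It was at 1428 and 1322 CPM in the CEAR libraries against 396 and 299 in the MKN45 libraries, so that the CEAR libraries held 3.96 times the MKN45 level (1.98 ± 0.20, edgeR adjusted p = 0.00608), and the call held in all 6 refits. HER2R stayed near MKN45, at 449 and 394 CPM (1.71 for CEAR minus HER2R, adjusted p = 0.00742). Next to FLNA and C2CD4A the called higher genes with the highest CPM rose by smaller amounts. They were PIEZO1, a mechanically gated cation channel (1.19 ± 0.15), CAV2, a caveolar coat protein (0.92 ± 0.13), the actin-binding COTL1 (0.87 ± 0.14), REPS2 (0.86 ± 0.15), ARHGAP5 (0.71 ± 0.14) and MDFIC (0.64 ± 0.13). Of these 6 none was called in every refit, and PIEZO1 was called in 4 of them, CAV2 in 2, REPS2 in 1 and the other 3 in none, with adjusted p up to 0.192 for MDFIC.

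The largest decreases went to 0 or near it. GAP43, a growth cone protein of neurons, had 5327 counts in MKN45 and none in CEAR, at least 1521-fold lower against a floor of 3 counts over the 2 libraries. SOSTDC1, a secreted inhibitor of BMP and WNT signalling, had 2098 counts in MKN45 and none in CEAR (at least 599-fold lower). GAP43, SOSTDC1 and A1CF, an RNA-binding factor of the apolipoprotein B editing complex (at least 217-fold lower), had at most 1 count in HER2R as well. EDA2R, a receptor of the tumour necrosis factor family and a p53 target, was lost only from CEAR of the derivatives: it fell from 6.86 and 7.55 CPM in MKN45 to 0, with 4.94 and 2.75 CPM in HER2R (edgeR adjusted p for CEAR against HER2R = 0.00922).

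Several transcription factor genes were among these losses. The zinc finger gene ZNF462 had 2 counts against 4748, a ratio of 2033 (95% counting interval 563 to 16794), and ZNF91 had 1 count against 2122. ZNF681 had 2 counts against 804, and ZNF347 none against 622 (at least 178-fold lower). The homeobox gene NKX2-5 had 1 count in CEAR and 665 in MKN45. CEAR was below HER2R for each of these 5 genes, with edgeR adjusted p from 0.00295 for ZNF462 to 0.00894 for ZNF681. HER2R itself was below MKN45 for ZNF462, ZNF91 and ZNF681, and was not called against MKN45 for ZNF347 and NKX2-5. GNB4, a G protein beta subunit, was at 0.0723 and 0 CPM in the CEAR libraries against 17.3 and 15.3 in the MKN45 libraries and 13.4 and 16.6 in HER2R, and LOC102723799 was at 0 in CEAR and at 10.5 and 14.99 CPM in MKN45. WNT16, a WNT ligand, was at 0.169 and 0.135 CPM in the CEAR libraries against 19.6 and 23.7 in the MKN45 libraries (-7.13 ± 0.34, edgeR adjusted p = 0.000872), and was also low in HER2R, at 0.306 and 0.306 CPM. All the genes of these last paragraphs on decreases were called in all 6 refits apart from A1CF, which was called in 3 (adjusted p up to 0.0785).

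Next to CEACAM5 and CEACAM6 the called lower genes with the highest CPM fell by less. MALL, a membrane raft protein, was at 207 and 198 CPM in the CEAR libraries against 563 and 489.7 in the MKN45 libraries (-1.38 ± 0.18, edgeR adjusted p = 0.013). PPP1R1B (-1.19 ± 0.25), the lactate dehydrogenase subunit LDHB (-1.06 ± 0.18), the glycolytic enzyme TPI1 (-0.95 ± 0.20), the mitochondrial chaperone HSPA9 (-0.88 ± 0.15) and the mitochondrial pore VDAC1 (-0.75 ± 0.13) fell as well. MALL was called in 3 of 6 refits, PPP1R1B and LDHB in 1 each and the other 3 in none (adjusted p up to 0.204 for TPI1).

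Of 20 genes that load and present peptides on MHC class I, all tested, 4 fell, none rose and 16 were not called without the block, where 3.62% of all tested genes were lower. With the block 18 were lower and 1 higher, where 13.8% of all tested genes were lower. The median change was -0.83, against -0.00019 over all tested genes, and 18 of 20 values were below 0. The called genes were NLRC5, the transactivator of class I genes, at 11.5 and 17.2 CPM in the CEAR libraries against 35.8 and 33.9 in the MKN45 libraries (-1.28 ± 0.22, edgeR adjusted p = 0.0264), the peptide transporter subunits TAP1 (-0.95 ± 0.17, adjusted p = 0.0274) and TAP2 (-0.59 ± 0.12, adjusted p = 0.0377), and the loading factor TAPBP (-0.81 ± 0.13, adjusted p = 0.0193). Their CEAR libraries lay below their MKN45 libraries without overlap, but NLRC5 held its call in 1 of 6 refits, TAP1 in 2 and the other genes in none (adjusted p up to 0.187).

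The class I heavy chain genes HLA-B and HLA-C narrowly missed the threshold without the block. HLA-B was at 9.90 and 17.1 CPM in the CEAR libraries against 38.4 and 115 in the MKN45 libraries (-2.50 ± 0.60, edgeR adjusted p = 0.0642, 0.000121 with the block). HLA-C was at 34.3 and 48.1 CPM in the CEAR libraries against 87.2 and 181 in the MKN45 libraries (-1.70 ± 0.40, adjusted p = 0.0584, 0.000205 with the block). In both genes library 2 was the higher of its line, by a larger ratio in MKN45 than in CEAR, and the lines did not overlap. The light chain B2M was at 206 and 266 CPM in the CEAR libraries against 266 and 397 in the MKN45 libraries (-0.49 ± 0.27, adjusted p = 0.341, 0.0156 with the block), and here CEAR library 2 was at the level of MKN45 library 1. PSMB9, an immunoproteasome subunit, was at 0.289 and 1.46 CPM in the CEAR libraries against 5.93 and 13.3 in the MKN45 libraries (-3.42 ± 0.78, adjusted p = 0.0556, 0.000194 with the block), and the constitutive chaperone CALR did not differ beyond the spread of the libraries (0.0068 ± 0.31, adjusted p = 0.995). The direct contrast found 2 of the 20 genes lower in CEAR than in HER2R, and the medians against MKN45 were -0.83 in CEAR and -0.60 in HER2R, which were read against the same MKN45 libraries.

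**Figure D3:**
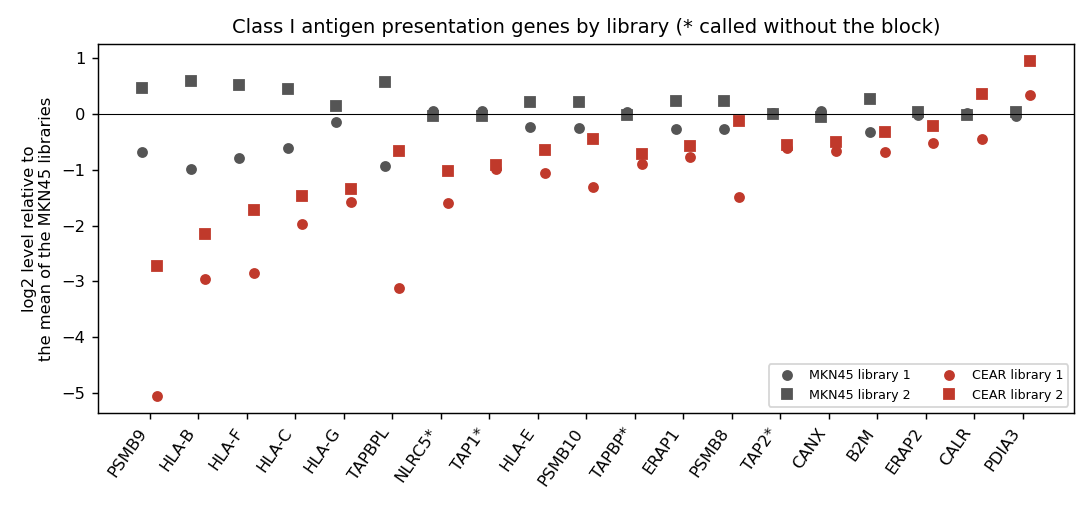
Levels of 19 class I presentation genes in the MKN45 and CEAR libraries, as log2 level relative to the mean of the 2 MKN45 libraries (0); circles are library 1 and squares library 2. The CEAR points lie below 0 for all genes shown but CALR and PDIA3, and the spread between libraries 1 and 2 is widest for PSMB9 and TAPBPL.

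In the interferon pathway itself the receptor chain IFNGR2 fell, from 115 and 90.1 to 47.1 and 40.99 CPM (-1.22 ± 0.19, edgeR adjusted p = 0.019), called in 3 of 6 refits (adjusted p up to 0.0965). IFNGR2 lies on chromosome 21 in a run of 5 neighbours, IFNAR2 to TMEM50B, that were all called lower with the block. The median of that run was -0.62 in CEAR and -0.67 in HER2R, read against the same MKN45 libraries. IFNGR1 (0.21 ± 0.17), JAK1 (0.17 ± 0.17) and JAK2 (0.16 ± 0.23) were not called, with edgeR adjusted p from 0.514 to 0.737. The transcription factor IRF1, at 8.17 and 11.4 CPM in the CEAR libraries against 25.2 and 18.03 in the MKN45 libraries (-1.14 ± 0.26, adjusted p = 0.0584), was called only with the block (adjusted p = 0.00839). IRF1 too lies in a run of 5 neighbours called lower with the block, on chromosome 5, with medians of -0.46 in CEAR and -0.49 in HER2R. Among 29 tested receptors, kinases, STATs and their inhibitors, 2 rose and 2 fell, 13.8% beside 6.19% of all tested genes. The leukaemia inhibitory factor receptor LIFR rose from 2.69 and 2.14 to 16.1 and 13.8 CPM (2.62 ± 0.30, adjusted p = 0.00868, called in all 6 refits) and STAT5A by 1.63 ± 0.31, while the interleukin 6 receptor IL6R changed by -1.33 ± 0.28. STAT5A was called in 1 of 6 refits and IL6R in none.

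Of 34 tested genes induced by type I interferon, 2 rose and 4 fell without the block, and 3 and 18 with it; the median was -0.73. EPSTI1 fell from 9.74 and 13.8 to 1.64 and 1.62 CPM (-2.85 ± 0.36, edgeR adjusted p = 0.0115) and the helicase DDX60 from 8.01 and 8.82 to 1.06 and 2.52 CPM (-2.22 ± 0.38). SAMD9L and MX2, an antiviral GTPase, had 3 and 1 counts in CEAR against 88 and 56 in MKN45. The list moved in both directions. BST2, or tetherin, which holds virus particles to the cell surface, rose from 5.70 and 2.32 to 37.9 and 41.4 CPM (3.28 ± 0.38, adjusted p = 0.00883, called in all 6 refits) and the RNA sensor regulator DHX58 rose by 2.45 ± 0.49. HER2R showed BST2 at 42.4 and 49.00 CPM. Of the other 5 called genes EPSTI1 and SAMD9L were called in 4 of 6 refits, DDX60 in 1 and MX2 and DHX58 in none (adjusted p up to 0.204).

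Of 29 tested genes induced by interferon gamma, 2 rose and 4 fell (3 and 13 with the block), with a median of -0.35; TAP1, TAP2 and NLRC5 belong to this list too. The apolipoprotein L genes parted, with APOL6 lower at 12.1 and 16.9 CPM in the CEAR libraries against 45.2 and 42.1 in the MKN45 libraries (-1.59 ± 0.22, edgeR adjusted p = 0.0139) and APOL1 higher at 9.76 and 15.5 CPM in the CEAR libraries against 2.96 and 3.34 in the MKN45 libraries (2.01 ± 0.36, adjusted p = 0.0294). IRF8, an interferon regulatory factor known from myeloid and B cells, was at 86.5 and 103 CPM in the CEAR libraries against 19.1 and 20.7 in the MKN45 libraries and 9.04 and 11.1 in HER2R (2.25 ± 0.17, adjusted p = 0.00289, called in all 6 refits). SLFN11, which blocks replication under DNA damage, fell from 57.1 and 42.9 to 7.30 and 6.34 CPM (-2.88 ± 0.21, adjusted p = 0.00258, called in all 6 refits), and was lower still in HER2R, at 0.484 and 0.434 CPM (3.88 for CEAR minus HER2R, adjusted p = 0.00233). Its relative SLFN5 changed by -1.46 ± 0.28 and SLFN12 by 4.59 ± 0.72, and they were called in 0 and 4 of 6 refits, APOL6 in 4 and APOL1 in 3.

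Among 13 MHC class II genes with counts listed, 5 were tested, of which 1 rose and 1 fell. CD74 rose as given above, while HLA-DMB, a peptide exchange factor of class II, fell from 6.13 and 5.14 to 0.241 and 0.382 CPM (-4.16 ± 0.41, edgeR adjusted p = 0.00608, called in all 6 refits). HER2R stood high for both genes, at 8.66 and 19.1 CPM for CD74 and 28.7 and 45.5 CPM for HLA-DMB.

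Among ligands of T and NK cells 2 of 16 tested genes fell and none rose (12.5% called), and among checkpoint genes 1 of 21 rose and 2 fell (14.3%), where 6.19% of all tested genes were called. The adhesion ligand CD58 was at 4.72 and 7.15 CPM in the CEAR libraries against 5.99 and 5.66 in the MKN45 libraries and ICAM1 at 1.18 and 1.84 CPM in the CEAR libraries against 0.585 and 0.409 in the MKN45 libraries, and neither was called without the block (edgeR adjusted p = 0.969 and 0.0813); ICAM1 was called with it (adjusted p = 0.0211). CD274, encoding PD-L1, had 14 counts in CEAR and 15 in MKN45, so no difference was detectable at this depth. Of the ligands TNFSF9, the 4-1BB ligand, fell from 20.8 and 8.80 to 2.26 and 1.28 CPM (-3.08 ± 0.58, adjusted p = 0.0335) and NCR3LG1, the ligand of the NK receptor NKp30, from 13.7 and 13.3 to 1.76 and 4.49 CPM (-2.10 ± 0.40, adjusted p = 0.034), each called in 1 of 6 refits (adjusted p up to 0.137 and 0.097). Of the checkpoint genes PVRL3, now NECTIN3, rose by 3.07 ± 0.32 to 4.79 and 4.29 CPM, and HHLA2 (-2.15 ± 0.45) and TGFB2 (-3.03 ± 0.63) fell; PVRL3 was called in all 6 refits and the others in none.

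Of 36 tested apoptosis genes 3 fell and none rose (9 and 5 with the block), so that 8.33% were called, beside 6.19% of all tested genes. The death receptor FAS was at 12.2 and 16.6 CPM in the CEAR libraries against 19.3 and 19.6 in the MKN45 libraries and CASP8, its initiator caspase, at 27.3 and 26.3 CPM in the CEAR libraries against 33.3 and 38.2 in the MKN45 libraries, and neither was called without the block (edgeR adjusted p = 0.274 and 0.145; 0.0372 with the block for CASP8). Of those that fell, BCL2L1 and XIAP encode inhibitors of cell death. XIAP lies in the stretch of lower level on X described below, which had a median of -1.03. BCL2L1 was at 233 and 172 CPM in the CEAR libraries against 437 and 385 in the MKN45 libraries (-1.02 ± 0.19, adjusted p = 0.0298) and XIAP at 29.2 and 29.7 CPM in the CEAR libraries against 55.4 and 57.6 in the MKN45 libraries (-0.94 ± 0.12, adjusted p = 0.0128). XIAP was called in 2 of 6 refits and BCL2L1 in none (adjusted p up to 0.137), and the third gene is not described here.

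Of 29 targets of p53, all tested, 6 fell, none rose and 23 were not called (15 lower and 1 higher with the block). This is 20.7% called, beside 6.19% of all tested genes, and the median was -0.59 with 25 values below 0. CDKN1A, the cell cycle inhibitor p21, was at 55.7 and 68.4 CPM in the CEAR libraries against 184 and 237 in the MKN45 libraries, and the lines were well apart (-1.76 ± 0.18, edgeR adjusted p = 0.00639, called in all 6 refits). SPATA18, a mitochondrial quality gene, fell from 10.8 and 11.3 to 0.915 and 0.494 CPM (-3.97 ± 0.46, adjusted p = 0.00898, called in all 6 refits), beside EDA2R. C12orf5, now TIGAR (-1.02 ± 0.21), ZMAT3 (-1.01 ± 0.20) and PHLDA3 (-0.95 ± 0.17) fell as well; ZMAT3 was called in 2 of 6 refits and the others in none (adjusted p up to 0.162). MDM2, the p53 ubiquitin ligase, was at 603 and 476 CPM in the CEAR libraries against 787 and 748 in the MKN45 libraries (-0.51 ± 0.23, adjusted p = 0.244, 0.0337 with the block). In HER2R the median of the list against the same MKN45 libraries was -0.38, and CEAR was lower than HER2R for 4 of the 29 genes and higher for 1.

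Of 46 DNA replication genes 2 rose and none fell, 4.35% beside 6.19% of all tested genes. With the block 13 rose and 1 fell, where 12% and 13.8% of all tested genes did, and 40 of 46 values were above 0 with a median of 0.29. The called genes were CDT1, the replication licensing factor (0.85 ± 0.14, edgeR adjusted p = 0.0223), and GINS2, a subunit of the replicative helicase (1.10 ± 0.23, adjusted p = 0.0418), and both lie in the chromosome 16 region described below. CDT1 was called in no refit and GINS2 in 1 (adjusted p up to 0.16). Of 48 G2 and mitosis genes none was called by edgeR (3 higher and 5 lower with the block; 1 had an unadjusted p under 0.05, and DESeq2 and limma-voom called 0) and the median was -0.012. Their summed level differed between library numbers more than between lines, at 7158 and 4302 CPM in CEAR and at 7761 and 4152 CPM in MKN45. CCND2, encoding cyclin D2, fell from 62.5 and 65.5 to 15.6 and 17.2 CPM (-1.97 ± 0.14, adjusted p = 0.00241, called in all 6 refits).

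Gastric and intestinal differentiation genes moved both ways. Of 42 tested, 2 rose and 5 fell (11 and 17 with the block). MUC13, a transmembrane mucin of the intestine, fell from 48.6 and 69.3 to 4.36 and 13.3 CPM (-2.73 ± 0.48, edgeR adjusted p = 0.0272), and the transcription factors KLF5 (-1.40 ± 0.19), FOXA1 (-1.02 ± 0.21) and SOX2 (-3.05 ± 0.35) fell too. SOX2 was at 1.76 and 0.742 CPM in the CEAR libraries against 9.99 and 10.6 in the MKN45 libraries and at 26.3 and 24.5 in HER2R, so that CEAR and HER2R stood on opposite sides of MKN45. Apart from SOX2, which was called in all 6 refits, these genes were called in 0 to 3 refits.

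The stomach mucin MUC5AC and the trefoil peptides, chosen here after their values were seen, passed the test only with the block. MUC5AC, which covers the gastric surface, was at 99.6 and 366 CPM in the CEAR libraries against 4.11 and 82.1 in the MKN45 libraries and at 0.153 and 3.32 in HER2R (2.44 ± 1.36, edgeR adjusted p = 0.344, 0.00211 with the block). The lines did not overlap, and library 2 exceeded library 1 in every line. The trefoil peptides differed, with TFF2 at 1.78 and 14.6 CPM in the CEAR libraries against 0.177 and 3.30 in the MKN45 libraries (adjusted p = 0.335, 0.000908 with the block) and TFF1 at 5.16 and 32.1 CPM in the CEAR libraries against 10.1 and 173 in the MKN45 libraries (adjusted p = 0.424, 0.00285 with the block).

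By raw count glycosyltransferases were the list with the most called increases without the block, 7 of 50 tested against 2 decreases. This is 18% called, beside 6.19% of all tested genes (2.57% higher and 3.62% lower). Some shorter lists had a larger called share, such as the retinoid genes below at 26.3%. With the block 13 rose and 11 fell, where 12% and 13.8% of all tested genes did, and the median was -0.083. GCNT1, which branches the core of mucin-type glycans, rose from 15.02 and 19.2 to 84.4 and 116 CPM, with 5.12 and 6.07 CPM in HER2R (2.55 ± 0.22, edgeR adjusted p = 0.00371). The fucosyltransferases FUT9 (1.51 ± 0.15, 46.95 and 46.8 CPM in CEAR) and FUT11 (2.48 ± 0.25, 20.5 and 15.01 CPM) rose as well, and these 3 genes were called in all 6 refits. A4GNT, which makes the terminal sugar of gastric gland mucin, reached 1.40 and 4.61 CPM from 0.0709 and 0.136, GCNT4 reached 1.81 and 6.70 from 0.124 and 0.273, B3GNT7 rose by 2.35 ± 0.50 and MGAT5, named here after its values were seen, by 0.63 ± 0.13. These last 4 genes were called in 0 or 1 of 6 refits, with adjusted p up to 0.193. The decreases were in C1GALT1C1, the chaperone of the enzyme that starts core 1 glycans (-1.22 ± 0.17, adjusted p = 0.0147), and in the ganglioside enzyme B4GALNT1 (-1.26 ± 0.22, adjusted p = 0.0259).

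Epithelial keratins, junction proteins and regulators had 2 of 45 called lower and none higher, 31 values below 0 and a median of -0.29. This is 4.44% called, below the 6.19% of all tested genes. With the block 17 were lower and 0 higher, where 13.8% and 12% of all tested genes were. CLDN3, a tight junction claudin, was at 24.1 and 20.8 CPM in the CEAR libraries against 67.1 and 61.6 in the MKN45 libraries (-1.52 ± 0.15, edgeR adjusted p = 0.00608, called in all 6 refits), and the polarity protein CRB3 changed by -1.03 ± 0.17 (called in no refit). CDH1, encoding E-cadherin, was at 584 and 637 CPM in the CEAR libraries against 542 and 655 in the MKN45 libraries and did not pass the test (0.029 ± 0.16, adjusted p = 0.942). Of 16 tested mesenchymal genes only the transcription factor FOXC2 was called (1.13 ± 0.17, adjusted p = 0.0177, in no refit). VIM, encoding vimentin, was at 0.964 and 0.337 CPM in the CEAR libraries against 0.0886 and 0.0910 in the MKN45 libraries and was called only with the block (adjusted p = 0.0128). ITGA2, a collagen receptor subunit, fell from 259 and 126 to 59.8 and 38.3 CPM (-1.97 ± 0.37, adjusted p = 0.0327, called in 1 of 6 refits), and COL12A1 rose to 8.22 and 12.4 CPM from 1.05 and 0.637 (called in 3).

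Among lipid enzymes 1 gene stood out. ELOVL5, an elongase of polyunsaturated fatty acids, was at 7.03 and 6.65 CPM in the CEAR libraries against 112 and 74.3 in the MKN45 libraries and at 197 and 157 in HER2R, so that CEAR was the low line (-3.77 ± 0.25, edgeR adjusted p = 0.00241, called in all 6 refits). ELOVL6, an elongase of saturated fatty acids, rose by 0.99 ± 0.21 and the sterol-sensing receptor NR1H3 by 1.15 ± 0.17, called in 0 and 2 of 6 refits. Over the 39 cholesterol and fatty acid synthesis genes, 33 values were below 0 and the median was -0.56, but only these 3 were called without the block, and 2 rose and 15 fell with it. The summed level of the list was 8128 and 2595 CPM in MKN45 libraries 1 and 2 and 3999 and 2284 CPM in CEAR, the highest sum being that of MKN45 library 1. FADS2, a desaturase, was at 14.8 and 6.79 CPM in the CEAR libraries against 274 and 31.3 in the MKN45 libraries (-3.82 ± 1.02, adjusted p = 0.0809, 0.00144 with the block), and for HMGCS1, of the sterol pathway, the values were 68.5 and 40.6 CPM in the CEAR libraries against 273 and 51.7 in the MKN45 libraries (-1.57 ± 0.70, adjusted p = 0.242, 0.0416 with the block). ACSL1, which activates fatty acids, fell from 101 and 31.9 to 9.76 and 7.12 CPM (-2.99 ± 0.54, adjusted p = 0.03, called in 2 of 6 refits).

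Retinaldehyde dehydrogenases, which make retinoic acid, went in opposite directions. ALDH1A1 fell from 76.8 and 159.6 to 3.20 and 8.02 CPM (-4.39 ± 0.53, edgeR adjusted p = 0.00868), and ALDH1A2 from 4.34 and 4.30 CPM to 0 (at least 124-fold lower). ALDH1A3 rose from 3.28 and 4.98 to 30.5 and 35.8 CPM (3.02 ± 0.24, adjusted p = 0.00306), and so did CYP26B1, which breaks retinoic acid down (2.29 ± 0.27, adjusted p = 0.00988). All 4 calls held in every refit. HER2R had ALDH1A3 at 33.4 and 36.6 CPM, ALDH1A1 at 0 and 0.0255 CPM and ALDH1A2 at 115 and 155 CPM. Of 19 tested genes of the list 3 rose and 2 fell, and the third higher gene is not described here.

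Of 34 antioxidant genes 2 fell (5.88%), and of 37 detoxifying genes 2 fell (5.41%), close to the 6.19% of all tested genes called. None rose without the block, and with it 5 were higher and 10 lower in the first list and 3 higher and 13 lower in the second. GPX2, a glutathione peroxidase of the gut, was at 96.5 and 143 CPM in the CEAR libraries against 411 and 427 in the MKN45 libraries (-1.81 ± 0.26, edgeR adjusted p = 0.0159), and ALDH3A1, an aldehyde dehydrogenase, at 46.04 and 67.4 CPM in the CEAR libraries against 198 and 227 in the MKN45 libraries (-1.90 ± 0.29, adjusted p = 0.0192). The glutathione transferase MGST1 changed by -1.21 ± 0.20 and CYP4F3 by -5.48 ± 0.81. The libraries of CEAR were below those of MKN45 in each case, and CYP4F3 was called in 5 of 6 refits, GPX2 and ALDH3A1 in 3 and MGST1 in 1. Of 40 tested hypoxia and glycolysis genes 3 rose and 2 fell. The oxygen sensor EGLN3 rose by 1.95 ± 0.21 to 14.7 and 16.04 CPM (adjusted p = 0.0074, called in all 6 refits), and hexokinase HK1 changed by -1.06 ± 0.19 (called in 1).

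In the WNT pathway 4 of 36 tested genes fell and 1 rose (9 and 7 with the block). The ligands WNT5B, from 5.49 and 6.14 to 0.0482 and 0.270 CPM, and WNT10A, from 4.32 and 2.18 to 0.313 and 0 CPM, fell together with WNT16, as did the transcription factor LEF1 (-3.93 ± 0.75, edgeR adjusted p = 0.035). TNFRSF19, a membrane receptor and WNT target, rose from 3.60 and 2.11 to 18.4 and 11.03 CPM. WNT5B and WNT16 were called in all 6 refits, WNT10A and LEF1 in 1 each and TNFRSF19 in 2. BMP7, a BMP ligand, fell from 64.5 and 37.7 to 10.6 and 10.7 CPM (-2.26 ± 0.26, adjusted p = 0.00898, called in all 6 refits), and GLI2, an effector of Hedgehog signalling, from 174 counts to 0 (at least 49.7-fold lower). SMAD3 rose by 0.84 ± 0.13 (adjusted p = 0.0197), called in no refit.

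Growth factor genes were divided. EREG, an EGF receptor ligand, rose from 14.8 and 16.3 to 42.4 and 41.5 CPM (1.43 ± 0.17, edgeR adjusted p = 0.00898, called in all 6 refits) and IGFBP2 by 1.65 ± 0.33. FGF2 (-1.79 ± 0.38), PDGFA (-1.23 ± 0.22) and PDGFC, at 2 counts against 130, fell. PDGFC was called in 4 of 6 refits, IGFBP2 in 1, and FGF2 and PDGFA in none. The MAPK feedback inhibitor SPRY2 fell from 45.2 and 24.2 to 8.67 and 7.89 CPM (-2.07 ± 0.30, adjusted p = 0.0167, called in 4 of 6 refits), and the AP-1 subunit JUN rose from 84.8 and 84.6 to 168 and 194 CPM (1.09 ± 0.14, adjusted p = 0.0115, called in 3). Of 24 tested genes of the YAP and TEAD pathway TEAD1 rose (0.82 ± 0.14) and TEAD4 (-0.81 ± 0.15) and AMOTL1 (-1.03 ± 0.13) fell; AMOTL1 was called in 3 of 6 refits and the TEAD genes in none. Among guidance molecules the ephrin EFNB2 fell from 104 and 96.6 to 35.7 and 34.1 CPM (-1.52 ± 0.12, adjusted p = 0.00309, called in all 6 refits), NRP2 and SEMA3C changed by -3.19 ± 0.46 and -1.19 ± 0.18, and NRP1 (1.06 ± 0.14) and ROBO1 (1.15 ± 0.16) rose. These last 4 genes were called in 2 to 4 refits.

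None of 31 proteasome subunits, 30 genes of the unfolded protein response and 15 heat shock genes was called by edgeR without the block; with it the higher and lower counts were 3 and 4, 1 and 3, and 2 and 1. At an unadjusted p under 0.05 these lists had 6, 3 and 3 genes, DESeq2 called 3, 2 and 2 of them, and limma-voom called 0, 1 and 0. Of 79 ribosomal protein genes 2 fell, RPL21 (-0.79 ± 0.15) and RPL36A (-1.04 ± 0.16). This is 2.53% called, beside 6.19% of all tested genes, and the list's median was -0.21. Of 44 tested enzymes of DNA methylation, Polycomb and silencing only BMI1 was called, as higher (0.63 ± 0.11, edgeR adjusted p = 0.0298, called in no refit). In the respiratory chain 4 of 45 genes fell and 1 rose, 11.1% beside 6.19% of all tested genes, and the lowest adjusted p was that of NDUFA9 at 53.5 and 49.8 CPM in the CEAR libraries against 102 and 105 in the MKN45 libraries (-1.003 ± 0.12, adjusted p = 0.00926), called in 5 of 6 refits. The gene lists were chosen with earlier results of these data known, so their counts are a description.

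**Figure D4:**
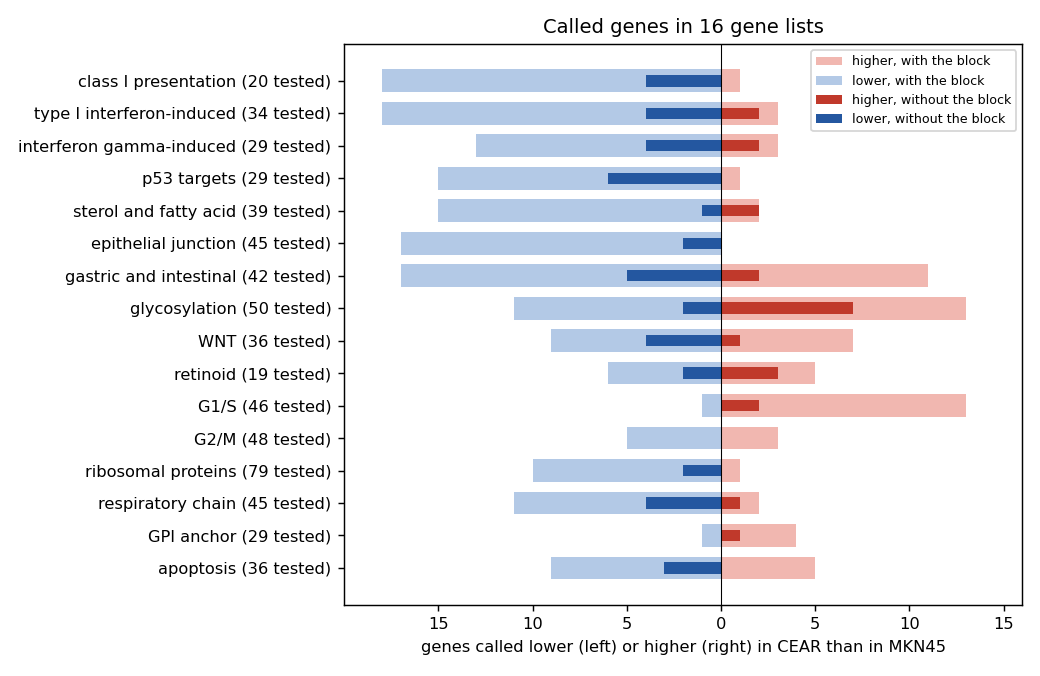
Number of genes called lower (left) and higher (right) in CEAR than in MKN45 in 16 lists, without the block (narrow dark bars) and with it (wide light bars). Lists leaning to the left with the block include class I presentation, type I interferon, interferon gamma, p53 target and epithelial genes. Sterol and fatty acid and respiratory chain genes lean to the left too. With the block 12% of all tested genes were higher and 13.8% lower. The ribosomal protein list had 1 higher and 10 lower of 79 genes there. Its lower share was not above that of all tested genes. The DNA replication (G1/S) list leans to the right.

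Part of the change followed position along the chromosomes. Positions from RefSeq (GRCh38.p14), or GENCODE where RefSeq had none, were found for 14140 tested genes. Calls were unevenly spread: 10.7% of 647 tested genes on chromosome 16 rose, and 14.9% of 242 on chromosome 13, 12% of 458 on X and 8.72% of 711 on chromosome 7 fell, beside 2.65% and 3.73% over all positioned genes. In 554 consecutive windows of 25 tested genes the median log2 fold change was above 0.5 in 19 and below -0.5 in 24. Neighbouring windows joined into 10 segments of higher and 10 of lower level. The lower segments held 600 genes, 4.24% of those positioned, and 181 of the 528 positioned lower calls (34.3%). The higher segments held 475 genes, 3.36%, and 70 of 375 higher calls (18.7%). The segments were chosen on these values with a limit set after the values were seen, so these shares carry no test.

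**Figure D5:**
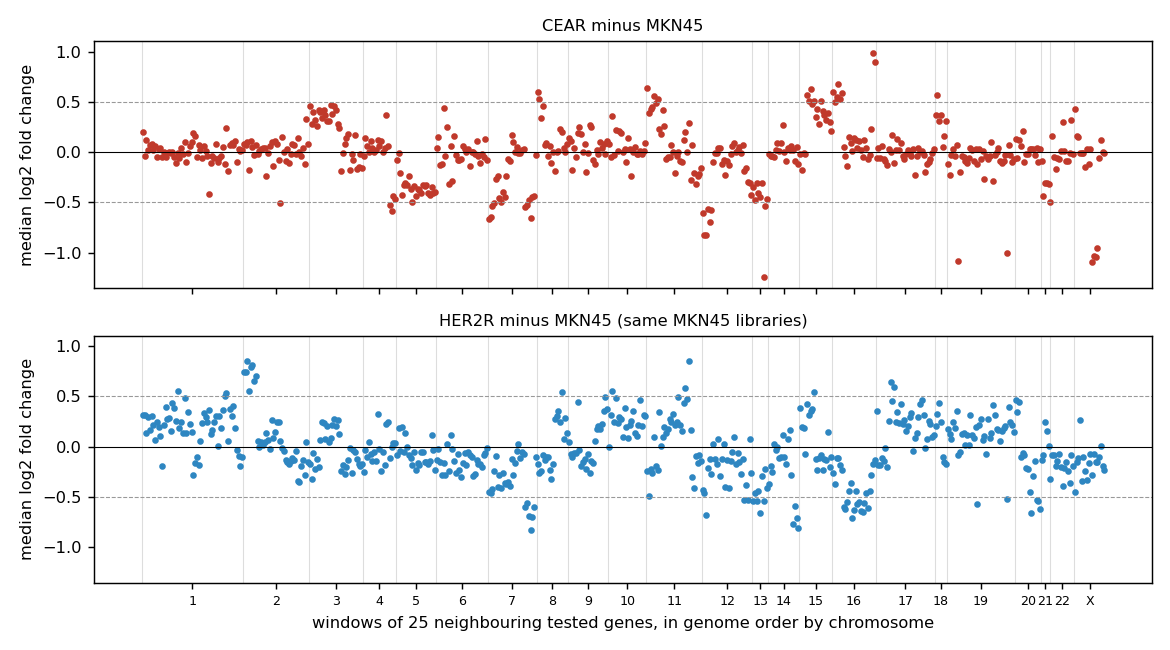
Median log2 fold change of each window of 25 neighbouring tested genes, in genome order, for CEAR minus MKN45 (top) and HER2R minus MKN45 (bottom, with the same MKN45 libraries); dashed lines mark 0.5 and -0.5. In CEAR stretches of windows lie together below 0 on chromosomes 5, 7, 12, 13 and X and above 0 on 3 and 15 and at both ends of 16.

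The longest stretch of lower level lay on X, from 80228489 to 129654956, where 48 of 100 tested genes fell and the median was -1.03. The same stretch had a median of -0.17 in HER2R, and 50 of its genes were lower in CEAR than in HER2R. A stretch of chromosome 19 (6379572 to 7902016) had a median of -1.08 with 13 of 25 genes called lower, against -0.083 in HER2R. It holds TNFSF9 and CD70, ligands of the tumour necrosis factor family with receptors on T cells, and CRB3; CD70 was called only with the block. The stretch of chromosome 12 from 280057 to 27695564 had a median of -0.72 over 150 genes (-0.38 in HER2R), with 37 called lower, among them LDHB, TPI1, CCND2, WNT5B, TEAD4 and NDUFA9. On chromosome 13 (60395533 to 102679958) 20 of 50 genes fell, among them KLF5, SPRY2 and ABCC4, with a median of -0.76 (-0.39 in HER2R). On chromosome 7 lower stretches of 100, 50 and 25 genes (from 192571, 120988711 and 139561570) had medians of -0.58, -0.54 and -0.65, and HER2R, read against the same MKN45 libraries, had -0.42, -0.57 and -0.83 there. In these 3 stretches 7, 0 and 0 genes were lower in CEAR than in HER2R.

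The stretch of higher level with the highest median was at the end of chromosome 16 (83807978 to 89163675), where 27 of 50 genes rose, the median was 0.95 and HER2R had -0.15. IRF8, PIEZO1, COTL1, FOXC2, CDT1, GINS2, COX4I1 and MAP1LC3B lie in it. At the other end of the chromosome (22916 to 5087379) the median was 0.55 over 150 genes, with 15 called higher. Windows chosen on the library 1 pair of CEAR and MKN45 kept their sign in the library 2 pair. This held for 18 of 18 higher and 28 of 28 lower windows, and in the reverse direction for 19 of 19 and 25 of 25. Both pairs hold libraries of the same 2 lines, which may be technical repeats, so the signs carry no test of the segments. No DNA measurement was analysed here.

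CEACAM5 and CEACAM6 do not lie in such a segment. In the window that holds them (chromosome 19, 40691530 to 41930141) the median of 25 genes was -0.037, 12 values were above 0, and the only other called gene was TMEM91, which was higher (2.93 ± 0.63, edgeR adjusted p = 0.0451, called in no refit). The class I, p53 and interferon lists had similar medians over their genes outside the segments, which were -0.84 for class I, -0.55 for p53 targets and -0.77 for type I interferon genes. For the G1/S list that median was 0.28. Levels also shifted with position outside the segments, as on chromosome 5, which held no segment and had a median of -0.35. How far position accounts for the list medians was not tested.

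Runs of adjacent called genes show the pattern at the scale of single genes. Without the block the longest were 2 runs of 6 (with it, 11). The first held 6 zinc finger genes on chromosome 19 (52949385 to 53356906), ZNF816, ZNF702P, ZNF160, ZNF415, ZNF347 and ZNF845. They fell by amounts from -0.998 for ZNF160 to complete loss of counts for ZNF347 and ZNF415. ZNF816 was at 5.37 and 5.12 CPM in the CEAR libraries against 14.05 and 15.3 in the MKN45 libraries. The median of this run was -1.96 in CEAR and -0.63 in HER2R, read against the same MKN45 libraries. The other, on X (101345661 to 101618000) was formed by TIMM8A, RPL36A, RPL36A-HNRNPH2, GLA, HNRNPH2 and ARMCX6, of which RPL36A-HNRNPH2 is a readthrough that shares exons with its neighbours. Their changes lay between -0.99 for TIMM8A and -1.48 for GLA, the lysosomal galactosidase. The median was -1.10 in CEAR and -0.067 in HER2R. Further runs of 5 on X were KLHL13 to PGRMC1 (median -1.41 in CEAR and -0.47 in HER2R) and ZBTB33 to C1GALT1C1 (-1.22 and -0.36). A run of 4 on chromosome 3 (137998816 to 138174921) rose, with CLDN18 and A4GNT as given above, DZIP1L from 1.59 and 1.27 to 21.6 and 30.4 CPM and DBR1 by 0.77 ± 0.14. In HER2R the median of this run against MKN45 was 0.0077, against 4.11 in CEAR.

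The direct contrast with HER2R called 1010 genes higher and 1095 lower in CEAR, 6.75% and 7.32% of those tested and 14.1% in all. Of the 385 genes higher than in MKN45, 197 were also higher than in HER2R, 159 were not called against HER2R and 29 were lower; of the 541 lower genes the numbers were 253, 275 and 13. These contrasts share the CEAR libraries, so the counts are not independent. HER2R itself had 731 genes higher (4.89%) and 726 lower (4.85%) than the same MKN45 libraries, 9.74% in all. CEAR and HER2R stood on opposite sides of MKN45, each called, for 13 genes that were higher in CEAR and 22 that were lower. FUT9 was at 46.95 and 46.8 CPM in CEAR, 16.6 and 16.3 in MKN45 and 0.306 and 0.281 in HER2R, and ALDH1A2 at 0 in CEAR, 4.34 and 4.30 in MKN45 and 115 and 155 in HER2R.

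Some genes were called only once the library number entered the fit. Apart from RNU1-1, the examples below differed between libraries 1 and 2 in the same direction in both lines. FCGBP, a mucus protein, was at 76.1 and 287 CPM in the CEAR libraries against 22.7 and 83.4 in the MKN45 libraries (1.78 ± 0.92, edgeR adjusted p = 0.31, 3.03e-05 with the block). Library 2 was the higher in each line, and at equal number CEAR was above MKN45. SLC7A8, an amino acid transporter, was at 15.1 and 34.6 CPM in the CEAR libraries against 1.31 and 5.43 in the MKN45 libraries, and THBS1, encoding thrombospondin, at 51.2 and 28.1 CPM in the CEAR libraries against 15.2 and 6.44 in the MKN45 libraries (adjusted p = 0.000121 and 7.53e-05 with the block, 0.0587 and 0.0824 without). In both lines library 2 was the higher for SLC7A8 and library 1 for THBS1. Among lower genes of this kind were GSTA1, a glutathione transferase, at 0.265 and 2.67 CPM in the CEAR libraries against 6.54 and 49.2 in the MKN45 libraries, CD70 at 4.43 and 2.29 CPM in the CEAR libraries against 21.8 and 10.1 in the MKN45 libraries and the sodium channel subunit SCNN1A at 43.2 and 18.7 CPM in the CEAR libraries against 129 and 76.02 in the MKN45 libraries, with adjusted p of 2.91e-05, 0.00012 and 0.000101 with the block. RNU1-1, a copy of the spliceosomal U1 RNA with near-identical relatives, was also in this group but had counts only in library 1 of CEAR and of HER2R (779 counts in CEAR), so its difference rests on 1 CEAR library.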

How the data were processed

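Libraries made from total RNA by a kit with rRNA depletion, from 3 lines with 2 libraries each, had been sequenced, and the authors deposited 1 table of raw read counts per gene symbol. GRCh38 and limma are named in the submitters' processing notes, without a role or version. The aligner and counter, and the annotation counted over, were not given in the sources used here. Without the annotation, reads of overlapping or near-identical genes cannot be assigned further than the table does.

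Genes were kept by edgeR's filterByExpr on the line, which left 14958 of 29744 symbols. Counts were scaled by the TMM method and fitted over all 6 libraries by edgeR 4.0.16 (quasi-likelihood, R 4.3.3; 3 residual degrees of freedom), with contrasts between lines and Benjamini-Hochberg adjustment; the threshold was 0.05. CPM uses the tested total times the TMM factor, and 1 count was worth 0.0177 to 0.0255 CPM. A fold against 0 counts used a floor of 3 counts over the libraries of a line. The fit was tested on simulated data.

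A second fit had library number as a block. The labels give the numbers and do not say that they mark a shared batch. The change from library 1 to 2 correlated at 0.545 between MKN45 and CEAR across genes (0.378 for MKN45 and HER2R, 0.355 for CEAR and HER2R), and the third principal component (17.9% of variance) separated the numbers. The share of RNA45S5, an rRNA precursor, was 8.88% to 10.7%. In bulk libraries, fewer cells of a kind and less RNA per cell cannot be told apart.

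Members, gene lists and named genes were chosen with earlier results of these data known. Named genes were 20 genes whatever their values (antigens, epithelial and adhesion molecules, interferon signalling, class I, death receptor), the 15 largest called changes per direction at 5 CPM or more and the 8 called genes per direction with the highest CPM, both without overlap of the libraries, up to 6 called members per list and direction, members of the 5 longest runs of called neighbours, and the 10 genes per direction at 5 CPM or more called only with the block that had the lowest p. Some genes these rules took, among them all on 1 chromosome, are not reported here. Of 1873 list symbols 1817 were in the table directly, 21 under an older name, and 35 were not matched. Of all symbols 25018 had a genome position, 145 of them from GENCODE and the others from RefSeq. Alternatives were DESeq2 1.42.0, limma-voom (limma 3.58.1), other scaling and filters, a test against a fold of 1.5, a fit of 4 libraries, the block, each library left out, and edgeR's older quasi-likelihood method, the last chosen after seeing the data.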

Additional observations from a re-analysis of the deposited data

Results flagged for a closer look

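For 13 of the genes named by the rules, CEAR and HER2R lay on opposite sides of MKN45, each called against it, and the direct contrast of the resistant lines was called as well. The contrasts with MKN45 share the MKN45 libraries, so the values below are those of CEAR minus HER2R on the log2 scale, by edgeR's quasi-likelihood test.

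Higher in CEAR and lower in HER2R were FUT9 (7.31, adjusted p = 0.000192), the prostaglandin transporter SLCO2A1 (4.48, adjusted p = 0.00192), GCNT1 (4.16, adjusted p = 0.0012), IRF8 (3.23, adjusted p = 0.000961) and REPS2 (3.11, adjusted p = 0.000934). SLCO2A1 was at 18.7 and 19.6 CPM in CEAR, 5.44 and 3.80 in MKN45 and 0.739 and 0.969 in HER2R.

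Lower in CEAR and higher in HER2R were HLA-DMB (-6.87), NRP2 (-5.67), FGF2 (-5.26), ELOVL5 (-4.69), SOX2 (-4.36), B4GALNT1 (-2.69) and AMOTL1 (-1.998), with adjusted p from 0.000961 for ELOVL5 to 0.00292 for B4GALNT1. ALDH1A2 had no count in CEAR, and HER2R was at least 3860-fold higher against the floor of 3 counts.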

How the results depend on the processing

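With library number as a block, 1795 genes were higher and 2066 lower in CEAR than in MKN45 (605 and 842 beyond 2-fold), and 2775 higher and 2942 lower than in HER2R. DESeq2 called 939 and 1159 (404 and 599 beyond 2-fold) and 1649 and 1783. The test against a fold of 1.5 called 126 and 173, and 155 and 280. The fit of the 4 libraries alone called 171 and 234 (162 and 215 beyond 2-fold), and with the block 2139 and 2446 (621 and 860). Other scaling, filters, limma-voom and the older edgeR method left each count within 1.5 times. With 1 library left out, the lone library was assumed to vary like the other lines, and the counts against MKN45 ranged from 109 to 176 higher and 116 to 252 lower, beyond 2-fold from 108 to 167 and 116 to 232. Against HER2R they ranged from 28 to 883 and 75 to 973, lowest without HER2R library 2.

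No called gene named in the text changed direction under these settings. Uncalled genes did with 1 library left out: CD274 (-0.15 without CEAR library 1 and -0.15 without MKN45 library 1, up to 0.38), CD58 (-0.30 without CEAR library 2 and -0.015 without MKN45 library 2, up to 0.29), JAK1 (-0.047 without CEAR library 1, up to 0.37), JAK2 (-0.058 without MKN45 library 1, up to 0.41) and S100A2 (from -3.51 to 0.11, the latter without MKN45 library 2). RNU1-1 has no value without CEAR library 1, since both lines are then at 0. The cause of these differences was not tested.

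The depth of 39657353 to 57964246 counts limits genes near 0, where 1 count was worth 0.0177 to 0.0255 CPM. With 2 libraries a line the calls rest on a spread shared over 3 lines.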

Other observations

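Lysosome and membrane genes, whose lists were not described above, changed too. The lysosomal membrane proteins LAMP1, at 239.8 and 252 CPM in the CEAR libraries against 413 and 488 in the MKN45 libraries (-0.87 ± 0.14, edgeR adjusted p = 0.0206), and LAMP2, at 57.8 and 58.04 CPM in the CEAR libraries against 112 and 133 in the MKN45 libraries (-1.08 ± 0.16, adjusted p = 0.0161), fell, while MAP1LC3B, an autophagosome protein, rose by 0.81 ± 0.14. LAMP2 lies in the X run from ZBTB33 to C1GALT1C1 and MAP1LC3B in the chromosome 16 stretch, both described above. LAMP1 lies on chromosome 13 in a run of 4 neighbours called lower with the block. The median of that run was -0.86 in CEAR and -1.06 in HER2R, read against the same MKN45 libraries. The potassium channel KCNN4 fell from 31.2 and 30.8 to 7.81 and 12.4 CPM (-1.62 ± 0.28, edgeR adjusted p = 0.0263). The channel subunit KCNE3 rose from 42.3 and 61.2 to 130.1 and 180.2 CPM (1.59 ± 0.23, edgeR adjusted p = 0.0161). These 5 genes were called in 0 to 4 of 6 refits.

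Secreted proteins were divided. C1QTNF6, of the C1q and tumour necrosis factor related family, rose from 1.98 and 1.39 to 28.6 and 31.8 CPM (4.15 ± 0.25, edgeR adjusted p = 0.00241, called in all 6 refits), and stood at 0.790 and 0.689 CPM in HER2R. The cytokine LIF fell from 48.6 and 35.6 to 20.7 and 14.02 CPM (-1.28 ± 0.24, adjusted p = 0.0314, called in 2), while its receptor LIFR rose. The anticoagulant PROS1 fell from 2.80 and 5.80 to 0.0482 and 0.112 CPM (-5.66 ± 0.76, adjusted p = 0.0115, called in 4).

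CEACAM5 differed between library numbers within the lines, library 2 holding 2.43 times the level of library 1 in MKN45 and 6.79 times in CEAR. At equal number MKN45 exceeded CEAR 431-fold in library 1 and 154-fold in library 2.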
